A study of Mus musculus with 16 samples.

Results

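The 32 genes described here cover glucose uptake and glycolysis (17 genes), the hypoxia-inducible factor (HIF) pathway (9 genes) and the pentose phosphate pathway (6 genes). They were taken as a named list, not by a rule on their levels, but the list was chosen with earlier results of these data known. All 32 were found by Ensembl identifier among the 47643 genes of each count file, of which 20730 had at least 1 count in the 16 libraries. The 16 libraries came from C57BL/6 wild-type mice. Alveolar macrophages grown in culture (mexAM), cells of bronchoalveolar lavage (BALF), cells of peritoneal lavage (PLF) and macrophages derived from bone marrow (BMDM) were each sampled from mice 1, 2 and 4. The other 4 libraries were alveolar macrophage cultures started from pooled lavage. Pool 1 was sequenced after passage 13 and passage 8, and pool 2 after passage 10 and passage 5. The sources used here do not state how often the single-mouse mexAM cultures had been passaged, the media, the oxygen tension, any sorting of the lavage cells, or the sex and age of the animals.

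Glycolysis splits glucose into pyruvate in the cytosol, and lactate dehydrogenase with the lactate exporter Slc16a3 removes the product. HIF is a transcription factor of an alpha and a beta subunit. In the presence of oxygen, prolyl hydroxylases of the Egln family mark the alpha subunit for destruction, and when it accumulates it turns on glycolytic genes, Vegfa, Bnip3, Pdk1 and the hydroxylase gene Egln3 itself. The pentose phosphate pathway draws glucose 6-phosphate away from glycolysis. Its oxidative arm (G6pdx, Pgls, Pgd) makes NADPH, and its non-oxidative arm (Rpia, Tkt, Taldo1) makes ribose and returns carbon to glycolysis. Alveolar macrophages live in an oxygen-rich, glucose-poor airspace.

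Levels are CPM, the count relative to the library total, scaled by edgeR's TMM factors. Reads of the 3' protocol come from the end of the transcript, so levels were not divided by gene length. A comparison of levels between genes is a comparison of counts, which also depends on how well the reads of each gene could be placed. Libraries held 827791 to 2884679 counts in genes, so that 1 count was worth 0.347 to 1.21 CPM. The labelled cell types were checked against marker genes. Siglecf and Car4, which mark alveolar macrophages, lay at 250 to 970 CPM in the pool cultures, mexAM and BALF and at no more than 11.5 CPM in PLF and BMDM. All 8 listed alveolar markers summed to 4945 to 14859 CPM in the alveolar groups and to at most 448.9 CPM in PLF and BMDM. Not every marker separated them. Marco had 234, 122 and 279 counts in PLF, against 285 in pool 2 at passage 10. Pparg had 50, 32 and 56 counts in BMDM, against 30 in mexAM of mouse 1. Itgax had 88 counts in BMDM of mouse 4, against 97 in mexAM of mouse 4. Gata6, the transcription factor of resident peritoneal macrophages, was at 46.1 to 56.7 CPM in PLF and at 0 elsewhere. Markers of other cells were found in the lavages and in BMDM. The summed level of 5 B cell markers was 1716 to 2213 CPM in PLF and at most 124 CPM elsewhere, and 4 mast cell markers summed to 899.6 to 968.8 CPM in PLF. The sum of 3 erythroid markers was 32.51 to 638.2 CPM in BALF. The sum of 5 neutrophil markers was 1677 to 4655 CPM in BMDM, highest in mouse 4, and at most 398.1 CPM in the other libraries. S100a8 and S100a9 made up most of the BMDM sum, with 3809 and 3716 counts in mouse 4. Ly6g had 9, 4 and 6 counts in BMDM of mice 1, 2 and 4, and Retnlg 332, 132 and 337.

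**Figure D1:**
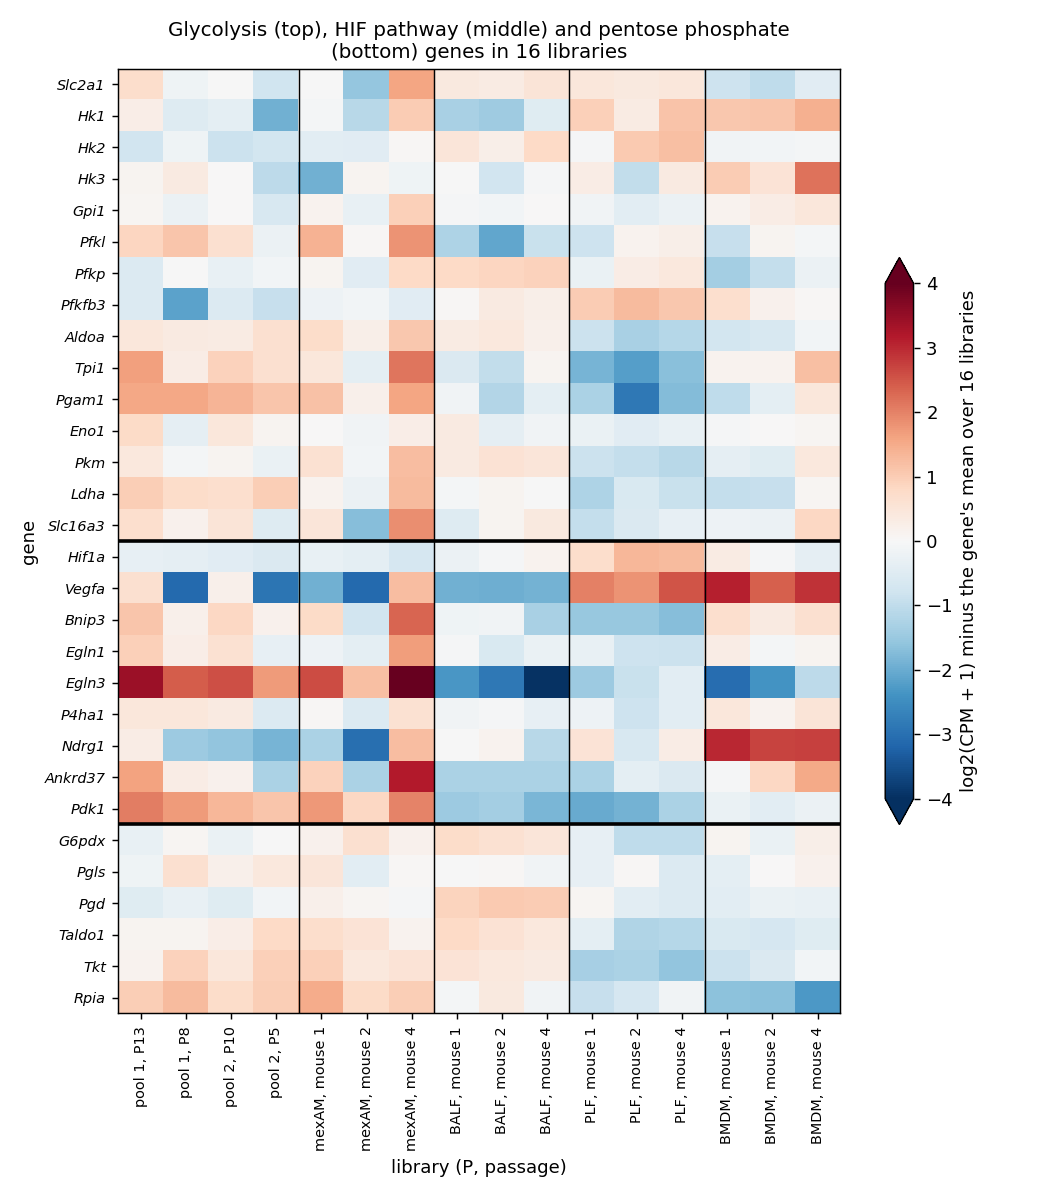
Heat map of 30 of the 32 genes (rows, by pathway) in the 16 libraries (columns), coloured by log2(CPM + 1) minus the gene's mean over the 16 libraries. Gapdh and Pgk1, with 63 and 29 counts in all libraries together, are left out. Egln3 and Pdk1 are red in all 7 culture libraries, and Vegfa and Ndrg1 in the 3 BMDM libraries. Vegfa is red in the 3 PLF libraries too.

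Culture of alveolar macrophages went with a shift in 8 of the 29 members that could be tested, when mexAM were set against the lavage cells they are grown from. The HIF hydroxylase gene Egln3, the pyruvate dehydrogenase kinase gene Pdk1, Pfkl, Bnip3, Pgam1 and Rpia were higher in mexAM, and Pgd and Hk2 were lower. The share of all 10011 genes that passed the same test (edgeR's quasi-likelihood test, Benjamini-Hochberg adjusted p under 0.05) was 30% (15.2% higher and 14.8% lower), so 8 of 29 members is close to the background. With library totals alone in place of TMM, 67.4% of the calls over all genes were in the higher direction, against 50.6% with TMM, and 88.9% of the calls among members, against 75%. The median log2 change was 0.35 over the 29 members and 0.01 over all genes. The count depended on single libraries: 13 members passed without mexAM of mouse 2 and 5 without BALF of mouse 4. The balance of directions rested on mexAM of mouse 4. Without that library 4 members were higher and 5 lower, in place of 6 and 2, with Pfkp, Slc2a1 and Ndrg1 added as lower. With any other library of these groups left out, most calls stayed in the higher direction (12 higher and 1 lower without mexAM of mouse 2). On GRCm38 (GENCODE M21) Egln3 (ENSMUSG00000035105) lies at chr12:54178981-54203860, Pdk1 (ENSMUSG00000006494) at chr2:71873224-71903858, Pfkl (ENSMUSG00000020277) at chr10:77986947-78010083, Bnip3 (ENSMUSG00000078566) at chr7:138890836-138909519, Pgam1 (ENSMUSG00000011752) at chr19:41911923-41918660, Rpia (ENSMUSG00000053604) at chr6:70765720-70792232, Pgd (ENSMUSG00000028961) at chr4:149149991-149166771, and Hk2 (ENSMUSG00000000628) at chr6:82725025-82774454, whole genes being counted. In bulk RNA, fewer cells of a type and less RNA per cell cannot be told apart.

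Egln3 had the largest change of the 29 members. It stood at 94.3, 35 and 358 CPM in mexAM of mice 1, 2 and 4, against 2.08, 1.13 and 0 CPM in BALF of the same mice, where the 3 libraries together held 4 counts. Every mexAM library was far above every BALF library. The log2 change was 7.05 ± 1.13 (SE, adjusted p = 0.000604), and it moved with single libraries, to 5.71 without mexAM of mouse 4 and to 8.15 without BALF of mouse 1. Of the counts in the Egln1, Egln2 and Egln3 genes together, Egln3 took 50.2% ± 15.3 in mexAM and 1.4% ± 1.31 in BALF (SD, n = 3 each). Egln1, the main oxygen sensor in most tissues, did not pass, and averaged 81.1 ± 69.7 CPM in mexAM and 41 ± 8.23 CPM in BALF (adjusted p = 0.113).

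Pdk1, which phosphorylates pyruvate dehydrogenase and so inhibits it, was at 192, 103 and 231 CPM in mexAM of mice 1, 2 and 4, against 20.1, 21.4 and 15.3 CPM in BALF. The groups were wide apart, and the log2 change of 3.21 ± 0.30 (adjusted p = 6.03e-07) kept its side of the threshold in all 14 alternatives, between 2.96 and 3.47. Among the 4 pyruvate dehydrogenase kinase genes, Pdk1 held 80.2% ± 2.87 of the counts in mexAM and 34.5% ± 5.14 in BALF, where Pdk3 held the most, 48.2% ± 1.74. Bnip3, a mitophagy receptor of the outer mitochondrial membrane, was at 56.8, 19 and 168 CPM in mexAM and at 29.1, 29.3 and 12.6 CPM in BALF. The groups overlapped, since mexAM of mouse 2 lay below BALF of mice 1 and 2. Its call (log2 change 1.79 ± 0.61, adjusted p = 0.0443) was lost with the mouse number as a block (1.55, adjusted p = 0.0952), without a filter on low counts (1.83, 0.16), with only these 2 groups in the fit (1.77, 0.092) and without any of 5 libraries: mexAM of mouse 4 (0.66, adjusted p = 0.243), mexAM of mouse 1 (2.00, 0.0617), or BALF of mouse 1 (2.01, 0.0818), mouse 2 (1.95, 0.0818) or mouse 4 (1.50, 0.147).

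The glycolysis members gave 2 genes higher and 1 lower of 15 tested. Pfkl, the liver-type phosphofructokinase that commits fructose 6-phosphate to glycolysis, was at 47.4, 18 and 63.7 CPM in mexAM, against 6.92, 3.38 and 8.98 CPM in BALF. All 3 mexAM libraries lay above all 3 BALF libraries, with a log2 change of 2.69 ± 0.51 (adjusted p = 0.00096), called in all 14 alternatives. The platelet-type gene Pfkp did not follow, with 72.1 ± 31.1 CPM in mexAM and 111 ± 3.86 CPM in BALF (log2 change -0.61 ± 0.30, adjusted p = 0.143). Pfkl thus took 35.2% ± 6.23 of the phosphofructokinase counts in mexAM and 5.41% ± 2.2 in BALF, where Pfkp held 94.4% ± 2.31.

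Pgam1, which moves the phosphate of 3-phosphoglycerate, was low throughout, at 15.2, 7.3 and 20.8 CPM in mexAM and 5.53, 2.25 and 4.49 CPM in BALF. The ranges did not overlap (log2 change 1.75 ± 0.54, adjusted p = 0.0224). The call was lost without BALF of mouse 2 (1.52, adjusted p = 0.0853), BALF of mouse 4 (1.79, 0.055) or mexAM of mouse 4 (1.37, 0.11), and with DESeq2 (1.78, 0.0516). Hk2, the inducible hexokinase, was at 60.9, 59.9 and 86.4 CPM in mexAM and 116, 98 and 145 CPM in BALF, with no overlap. Its log2 change of -0.78 ± 0.27 (adjusted p = 0.0394) missed the threshold under library totals alone (-0.57, 0.149) and without BALF of mouse 1 (-0.81, 0.0792) or mouse 4 (-0.62, 0.139), or mexAM of mouse 1 (-0.69, 0.114) or mouse 2 (-0.69, 0.109).

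The remaining 12 glycolysis members did not pass. The glucose transporter gene Slc2a1 averaged 156 ± 151 CPM in mexAM and 144 ± 7.68 CPM in BALF, Aldoa, the most abundant glycolytic member, 1012 ± 290 and 773 ± 52.3 CPM, Pkm 389 ± 174 and 339 ± 22.9 CPM, and Ldha 347 ± 200 and 241 ± 17.7 CPM, with mexAM first in each pair. The SDs of mexAM were several times those of BALF for each of these 4 genes. Tpi1 (log2 change 1.56 ± 0.57, adjusted p = 0.058) and Hk1 (1.33 ± 0.50, 0.0567) lay just outside the threshold. With the mouse number as a block both passed, at 1.34 (adjusted p = 0.00331) for Tpi1 and 1.25 (0.0229) for Hk1.

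Of the 6 pentose phosphate genes, 1 rose and 1 fell. Pgd, the second NADPH-making dehydrogenase, was at 479, 444 and 407 CPM in mexAM, against 773, 873 and 842 CPM in BALF. The groups were well separated (log2 change -0.90 ± 0.19, adjusted p = 0.00177). Rpia, which forms ribose 5-phosphate, was at 142, 85.2 and 101 CPM in mexAM, against 47, 66.4 and 44.9 CPM in BALF, again without overlap (1.06 ± 0.26, adjusted p = 0.00546). G6pdx, the entry enzyme of the oxidative arm, averaged 115 ± 22.3 CPM in mexAM and 139 ± 12.5 CPM in BALF and did not pass (adjusted p = 0.381).

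**Figure D2:**
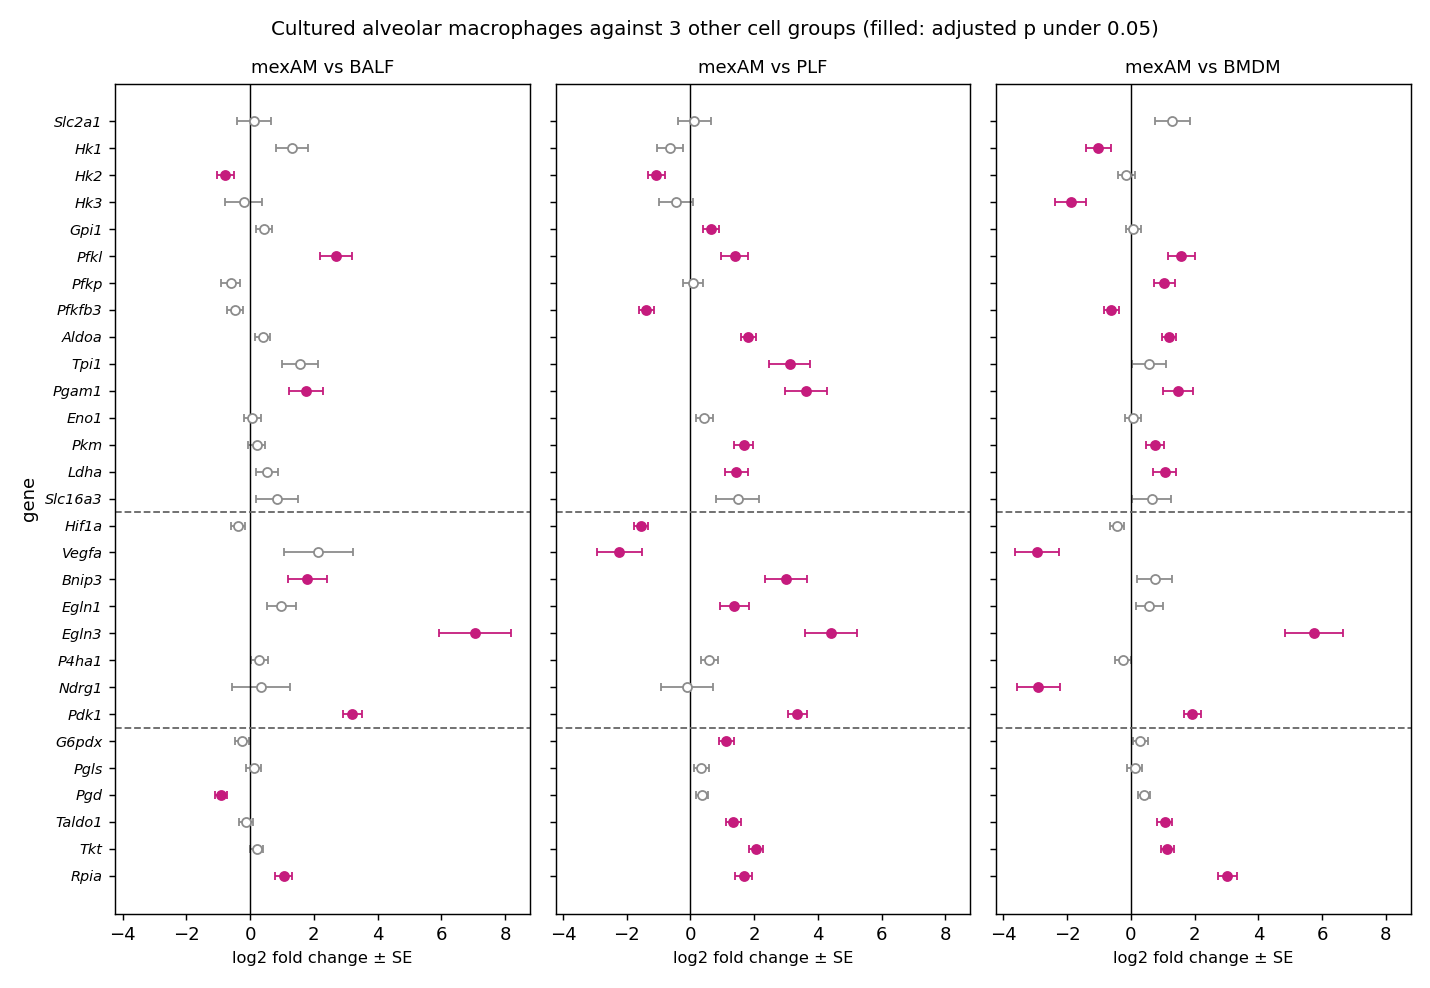
Log2 fold change ± SE (edgeR) of 29 genes in mexAM against BALF (left), PLF (middle) and BMDM (right), n = 3 libraries a group; filled points have an adjusted p under 0.05, and dashed lines divide glycolysis, HIF pathway and pentose phosphate genes. Egln3, Pdk1, Pfkl, Pgam1 and Rpia are filled to the right of 0 in all 3 panels, which share the mexAM libraries.

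Genes of the neighbouring pathways, from lists kept apart from the 32, are given for the same pair of groups, where 30% of all genes passed, 15.2% higher and 14.8% lower. Of 11 other glycolytic isoforms and transporters tested, 4 were higher in mexAM and 0 lower. Among them was Aldoc, an aldolase isoform best known from brain, at 547 ± 123 CPM in mexAM and 42.5 ± 4.59 CPM in BALF (log2 change 3.69 ± 0.40, adjusted p = 9.19e-06). Of 8 other HIF regulators, 1 was higher: Epas1, the gene of HIF-2 alpha, at 116 ± 28 CPM in mexAM and 13 ± 1.71 CPM in BALF (3.18 ± 0.28, adjusted p = 2.98e-07). Hif1a, by contrast, was at 214, 201 and 165 CPM in mexAM and 221, 254 and 287 CPM in BALF (log2 change -0.39 ± 0.22, adjusted p = 0.197). Of 19 other HIF targets, 5 were higher and 2 lower, which is near the background. The iron-uptake receptor gene Tfrc had 135 ± 60.5 CPM in mexAM and 17.8 ± 4.02 CPM in BALF, and the lipase inhibitor gene Angptl4 240 ± 30.2 CPM in mexAM and 33.3 ± 2.3 CPM in BALF. The chemokine receptor gene Cxcr4 fell to 9.27 ± 5.32 CPM in mexAM, against 37.5 ± 10.9 CPM in BALF, and Bhlhe40, a repressor of the clock family, to 207 ± 16.4 CPM in mexAM, against 592 ± 62.6 CPM in BALF.

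At the junction of glycolysis and the mitochondrion, 4 of 12 tested genes were higher in mexAM and 0 lower, near the 30% of all genes that passed (15.2% higher). Mpc2, a subunit of the mitochondrial pyruvate carrier, averaged 753 ± 80.9 CPM in mexAM and 189 ± 55.4 CPM in BALF (log2 change 1.99 ± 0.22, adjusted p = 4.57e-06). Pdp2, the phosphatase that reverses the action of Pdk1, averaged 31.8 ± 4.94 CPM in mexAM and 9.97 ± 0.902 CPM in BALF (1.67 ± 0.27, adjusted p = 0.000171). Pdk2, a second kinase gene, averaged 11.3 ± 2.39 CPM in mexAM and 2.43 ± 1.19 CPM in BALF (2.10 ± 0.46, adjusted p = 0.00253). In glycogen metabolism 4 of 10 genes were higher and 0 lower, where 15.2% of all genes were higher and 14.8% lower, with Pygl, which releases glucose 1-phosphate from glycogen, at 490 ± 183 CPM in mexAM and 160 ± 20.9 CPM in BALF, and Gys1, which builds glycogen, at 37.7 ± 17.3 CPM in mexAM and 4.92 ± 2.31 CPM in BALF. Pgm1, which links glycogen to glycolysis and came from the list of other pentose phosphate and nucleotide sugar genes (3 higher and 1 lower of 7), averaged 78 ± 36.4 CPM in mexAM and 15.7 ± 2.26 CPM in BALF. Aldoc, Epas1, Tfrc, Angptl4, Cxcr4, Bhlhe40, Mpc2, Pdp2, Pygl, Gys1 and Pgm1 passed in all 14 alternatives run for each.

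The mexAM cultures of the 3 mice did not carry these genes to the same extent. Mouse 4 had the highest level of 13 of 15 glycolysis members and 6 of 7 HIF pathway members of at least 10 CPM, against 27.6% of all 7361 such genes, and of 0 of 6 pentose phosphate members. Mouse 2 had the lowest level of 13 of 15 and of 6 of 7, against 34.2% of all genes. Among the other HIF targets, 12 of 14 were highest in mouse 4, but so were only 1 of 7 other glycolytic isoforms and transporters, 4 of which were highest in mouse 2, and 2 of 8 other HIF regulators. These are counts over genes of 3 libraries and carry no test.

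Among the glycolysis members of at least 10 CPM, the range was widest for the 2 transporter genes. Between mice 4 and 2, Tpi1 spanned 5.87-fold, Hk1 4.78-fold, Ldha 2.84-fold and Pkm 2.54-fold. Slc2a1, which brings glucose in, was at 106, 36.5 and 325 CPM in mexAM of mice 1, 2 and 4, an 8.9-fold span, and Slc16a3, which lets lactate out, at 50.4, 10.2 and 132 CPM, a 12.9-fold span. In BALF the same genes were at 143, 137 and 153 CPM and at 24.9, 38.3 and 47.6 CPM. The mexAM values lay on both sides of the BALF values, and without mexAM of mouse 4 the difference from BALF of Slc2a1 passed the test in the negative direction (log2 change -1.03, adjusted p = 0.027), while without mexAM of mouse 2 that of Slc16a3 passed in the positive direction (1.34, 0.0297). In the HIF pathway Vegfa, the vessel growth factor, was at 3.51, 0.973 and 39.3 CPM in mexAM of mice 1, 2 and 4, from 6, 2 and 100 counts. Ndrg1, a stress-response gene, was at 2.34, 0 and 18.1 CPM, and Ankrd37 at 3.51, 0 and 20.4 CPM. Egln3 and Bnip3 (given above) spanned 10.2-fold and 8.85-fold between mice 4 and 2, Egln1 4.19-fold, and Pdk1 2.24-fold. Hif1a ran the other way and was lowest in mouse 4. So did Tfrc among the other HIF targets, at 131, 197 and 76.2 CPM.

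The pentose phosphate genes did not share that order. Taldo1 was at 1017, 912 and 691 CPM in mexAM of mice 1, 2 and 4, and Tkt at 511, 355 and 383 CPM. In mouse 1, 5 of the 6 genes were highest, against 41.4% of all 7361 genes. The summed level of the 17 glycolysis members was 2233, 1499 and 3708 CPM in mexAM of mice 1, 2 and 4 and that of the 6 pentose phosphate members 2380, 2006 and 1780 CPM. The library of mouse 4 had 2427996 counts in genes, with 1721856 and 2055082 counts for mice 1 and 2, and its share of mitochondrial counts was 9.35%, with 11.6% and 11.1% for those 2 mice. The 5 neutrophil markers summed to 99.41 CPM in mexAM of mouse 4, with 369 and 398.1 CPM in mice 1 and 2, and S100a8 made up most of each sum. The part of depth, mitochondrial share or these markers in the spread was not tested, nor was culture density or passage, for which the labels of these libraries give no value.

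**Figure D3:**
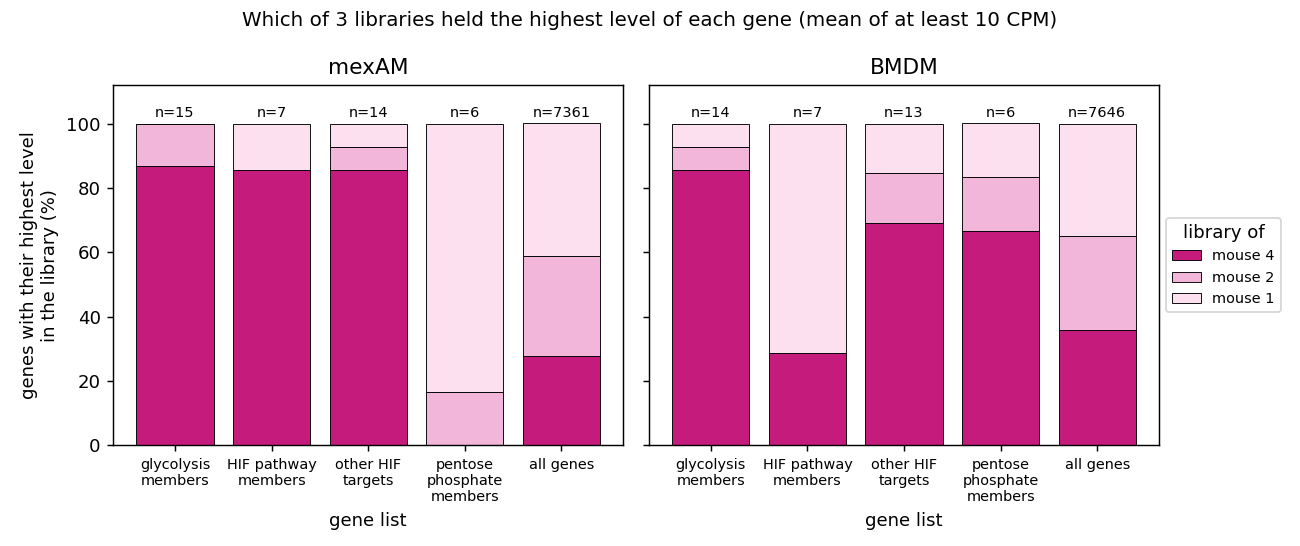
Share of genes (%) whose highest level lay in the library of mouse 4, 2 or 1, for mexAM (left) and BMDM (right), by gene list; n is the number of genes with a group mean of at least 10 CPM. In mexAM the library of mouse 4 holds 86.7% of glycolysis and 85.7% of HIF pathway members, 0% of pentose phosphate members and 27.6% of all genes.

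In BMDM the library of mouse 4 was likewise highest for 12 of 14 glycolysis members, against 35.7% of all 7646 genes, but for 2 of 7 HIF pathway members. The same library was highest for 4 of 6 pentose phosphate members, 9 of 13 other HIF targets, 7 of 10 genes of pyruvate entry into mitochondria and 5 of 7 other pentose phosphate and nucleotide sugar genes. Pkm was at 325 CPM in BMDM of mouse 4, with 190 and 173 CPM in mice 1 and 2, Ldha at 254 CPM, with 124 and 126 CPM, and Hk3, a hexokinase known from myeloid cells, at 65.9 CPM, with 29.3 and 21 CPM. That library also had the largest sum of neutrophil markers, 4655 CPM, with 2295 and 1677 CPM in mice 1 and 2. Most of each sum was S100a8 and S100a9, and the part of the cells that carry these markers was not tested. In PLF the library of mouse 4 was highest for 8 of 14 glycolysis members, against 30.8% of all genes, and in BALF for 6 of 12, against 36%. The glycolysis sums of mice 1, 2 and 4 were nevertheless close to each other in BALF, at 1917, 2006 and 1994 CPM, and in PLF, at 1095, 1139 and 1207 CPM. The library of mouse 4 was lowest for 5 of 6 pentose phosphate members in BALF and for 4 of 6 in PLF. Over all genes it was lowest for 2790 of 7202 in BALF and for 1849 of 7644 in PLF.

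The promoters of 7 members, picked after their values were seen, are shown to set the HIF-type letters beside these values. Egln3, Pdk1, Bnip3 and Pfkl were higher in mexAM than in BALF, and Slc2a1, Slc16a3 and Vegfa differed widely among the mexAM cultures. They are RefSeq windows of 300 bases, from 250 bases before to 50 bases after the start of the gene, on GRCm38.p6: Egln3 at chr12:54203825-54204124 (minus strand), Pdk1 at chr2:71872974-71873273 (plus strand), Bnip3 at chr7:138909457-138909756 (minus strand), Slc2a1 at chr4:119108495-119108794 (plus strand), Slc16a3 at chr11:120948817-120949116 (plus strand) Pfkl at chr10:78009758-78010057 (minus strand) and Vegfa at chr17:46032328-46032627 (minus strand). Pdk1 and Vegfa have a second window each, and the first is shown. Each is written 5' to 3' on the strand of the gene, and capitals mark ACGTG or GCGTG, the core letters of a hypoxia response element, on either strand.
Egln3: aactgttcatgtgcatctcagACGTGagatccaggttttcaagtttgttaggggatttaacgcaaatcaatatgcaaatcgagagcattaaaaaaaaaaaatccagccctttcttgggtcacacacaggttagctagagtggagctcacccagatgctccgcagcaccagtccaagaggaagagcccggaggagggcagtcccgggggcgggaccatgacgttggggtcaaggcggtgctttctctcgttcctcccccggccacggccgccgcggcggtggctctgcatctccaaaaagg
Pdk1: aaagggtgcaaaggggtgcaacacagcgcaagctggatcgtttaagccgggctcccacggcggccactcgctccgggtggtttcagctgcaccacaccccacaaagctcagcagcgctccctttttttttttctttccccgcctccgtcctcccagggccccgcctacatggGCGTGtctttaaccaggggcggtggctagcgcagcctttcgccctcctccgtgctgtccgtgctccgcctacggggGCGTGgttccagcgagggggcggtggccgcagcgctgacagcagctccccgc
Bnip3: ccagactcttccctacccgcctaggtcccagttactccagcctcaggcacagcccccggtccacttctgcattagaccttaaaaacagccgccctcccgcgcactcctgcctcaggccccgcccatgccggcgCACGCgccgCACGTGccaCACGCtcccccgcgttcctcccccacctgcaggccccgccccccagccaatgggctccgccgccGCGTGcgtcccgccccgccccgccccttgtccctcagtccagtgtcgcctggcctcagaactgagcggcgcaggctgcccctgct
Slc2a1: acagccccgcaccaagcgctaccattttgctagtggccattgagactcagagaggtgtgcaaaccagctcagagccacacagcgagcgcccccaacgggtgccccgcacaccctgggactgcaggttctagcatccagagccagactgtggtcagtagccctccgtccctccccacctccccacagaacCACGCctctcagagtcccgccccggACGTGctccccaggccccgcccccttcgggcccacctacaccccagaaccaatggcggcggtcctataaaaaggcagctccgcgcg
Slc16a3: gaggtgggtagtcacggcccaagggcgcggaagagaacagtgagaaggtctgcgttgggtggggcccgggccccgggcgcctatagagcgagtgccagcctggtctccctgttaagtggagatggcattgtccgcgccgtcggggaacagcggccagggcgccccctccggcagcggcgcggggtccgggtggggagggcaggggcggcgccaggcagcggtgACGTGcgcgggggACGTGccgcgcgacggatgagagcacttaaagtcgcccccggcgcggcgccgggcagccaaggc
Pfkl: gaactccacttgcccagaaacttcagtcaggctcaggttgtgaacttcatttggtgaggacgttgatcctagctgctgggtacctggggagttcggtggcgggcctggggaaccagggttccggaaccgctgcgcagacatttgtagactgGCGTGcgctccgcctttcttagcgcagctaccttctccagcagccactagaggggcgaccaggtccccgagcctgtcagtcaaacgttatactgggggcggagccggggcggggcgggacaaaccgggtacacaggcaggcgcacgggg
Vegfa: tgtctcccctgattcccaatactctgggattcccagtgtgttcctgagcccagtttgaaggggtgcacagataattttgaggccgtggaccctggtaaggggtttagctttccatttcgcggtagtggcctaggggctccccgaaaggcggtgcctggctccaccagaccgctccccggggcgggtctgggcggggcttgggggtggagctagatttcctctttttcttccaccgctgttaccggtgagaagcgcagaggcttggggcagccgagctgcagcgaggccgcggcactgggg
Both motifs are short and common: 43.8% of 32851 RefSeq promoters of this length held at least 1 of them. Among promoters of the members, 20 of 25 windows of glycolysis genes, 8 of 10 of HIF pathway genes and 6 of 7 of pentose phosphate genes held 1 or more. In the pentose phosphate genes the letters were mostly GCGTG, in 6 windows, with ACGTG in 1. Both motifs hold a CG pair, and windows were not matched on base composition. Hits on the 2 strands were counted apart, so that 1 CACGTG, which reads the same on both strands, counts as 2 ACGTG. Egln3 held 1 ACGTG, Pdk1 2 GCGTG, Bnip3 2 ACGTG (1 CACGTG) and 3 GCGTG, Slc16a3 2 ACGTG, Slc2a1 1 of each and Pfkl 1 GCGTG. The Vegfa window shown held neither, and its second window 1 of each. The second Pdk1 window held neither. The first Ldha window held 5 ACGTG by that count, with CACGTG among them. Neither was found in the windows of Tpi1 and Gpi1, in the first windows of Hk1, Aldoa and Pkm, or in the second window of Pgd. Windows were found for 31 of the 32 members.

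The pool cultures offered a second set of alveolar macrophages in culture. None of 30 members tested passed between pool cultures and mexAM with edgeR, and 0.698% of all 10602 genes did (0.519% higher and 0.179% lower). With edgeR 1 member, Pgd, had an unadjusted p under 0.05, and DESeq2 called 0 of 29 members with 2 at an unadjusted p under 0.05. The median log2 change was -0.30 over the 30 members and 0.00 over all genes. Without mexAM of mouse 4, 1 member passed, Vegfa (log2 change 2.80, adjusted p = 0.0155). A missed threshold does not show that the cultures were alike, since the mexAM spread given above was wide.

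Against BALF, pool cultures had 5 members higher and 5 lower of 30, with 26% of all genes passing (13.6% higher and 12.4% lower). With library totals alone, 67.7% of the calls over all genes were in the higher direction, in place of 52.4%. The median log2 change was 0.37 over the members and 0.00 over all genes. Egln3 was at 168 and 82.4 CPM in pool 1 at passages 13 and 8 and at 92.6 and 49.4 CPM in pool 2 at passages 10 and 5, against 2.08, 1.13 and 0 CPM in BALF (log2 change 6.50 ± 1.20, adjusted p = 0.00167, and 7.59 without BALF of mouse 1). Pdk1 was at 239, 186, 146 and 124 CPM in the same 4 libraries, against 15.3 to 21.4 CPM in BALF (3.28 ± 0.32, adjusted p = 8.22e-07). All 4 pool libraries lay above BALF for both genes. Pfkl (log2 change 2.20 ± 0.53), Pgam1 (2.12 ± 0.52) and Rpia (0.93 ± 0.27) were higher too, and Pgd (-1.34 ± 0.21), Hk2 (-1.17 ± 0.30), Pfkp (-1.13 ± 0.33), Pfkfb3 (-0.99 ± 0.27) and G6pdx (-0.75 ± 0.24) were lower. Both comparisons with BALF use the same BALF libraries. Leaving out pool 1 brought the number of calls to 6: Pfkp (adjusted p = 0.111), Pfkfb3 (0.122), G6pdx (0.117) and Rpia (0.144) then missed the threshold. Leaving out pool 2 ended the calls of Hk2 (0.115), Pfkp (0.106) and G6pdx (0.171), leaving out BALF of mouse 1 those of G6pdx (0.0754) and Rpia (0.0747), and leaving out BALF of mouse 4 that of Rpia (0.0636). Under library totals alone Pfkp (-0.93, 0.0535) and G6pdx (-0.55, 0.0806) missed it.

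With passage, no member passed the test (edgeR, 30 tested, with 1 of 10527 genes or 0.0095% passing, which was higher, and 0% lower). An unadjusted p under 0.05 was found for 4 members, Tkt, Vegfa, Pfkfb3 and Eno1, and DESeq2 called 0 of 22, with 3 at an unadjusted p under 0.05. All 7 HIF pathway members of at least 10 CPM were higher at the later passage in both pools, against 28.4% of 7368 such genes, although for P4ha1 in pool 1 the ratio was 1.01. So were Ndrg1 and Ankrd37 below that level, from few counts. In pool 2, later passage first, Ndrg1 had 5 and 1 counts and Ankrd37 5 and 0. All 6 pentose phosphate members were lower at the later passage in both pools, against 26.6% of genes, although for Taldo1 in pool 1 the ratio was 0.999. Of 15 glycolysis members 9 were higher and 2 lower in both pools. The lists kept apart were more mixed, for genes of at least 10 CPM. Of 14 other HIF targets 8 were higher and 2 lower in both pools, and of 8 other HIF regulators 2 and 2. Of 6 other pentose phosphate and nucleotide sugar genes 1 was higher, 0 were lower and 5 were split between the pools.

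Vegfa was at 25.4 and 0.958 CPM in pool 1 at passages 13 and 8 and at 18.4 and 1.24 CPM in pool 2 at passages 10 and 5, where the earlier libraries of each pool held 1 count. The ratios of other HIF pathway members were smaller: later over earlier ratios in pools 1 and 2 were 2.04 and 1.87 for Egln3, 1.92 and 1.59 for Bnip3, and 1.02 and 1.09 for Hif1a. Tkt ran the opposite way, at 293 and 503 CPM in pool 1 and at 364 and 513 CPM in pool 2, later passage first. Each pool gives 1 library per passage, and the later libraries were also the deeper ones of each pool (1490455 and 1038002 counts in pool 1, 2884679 and 827791 in pool 2), so that passage and depth cannot be told apart.

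**Figure D4:**
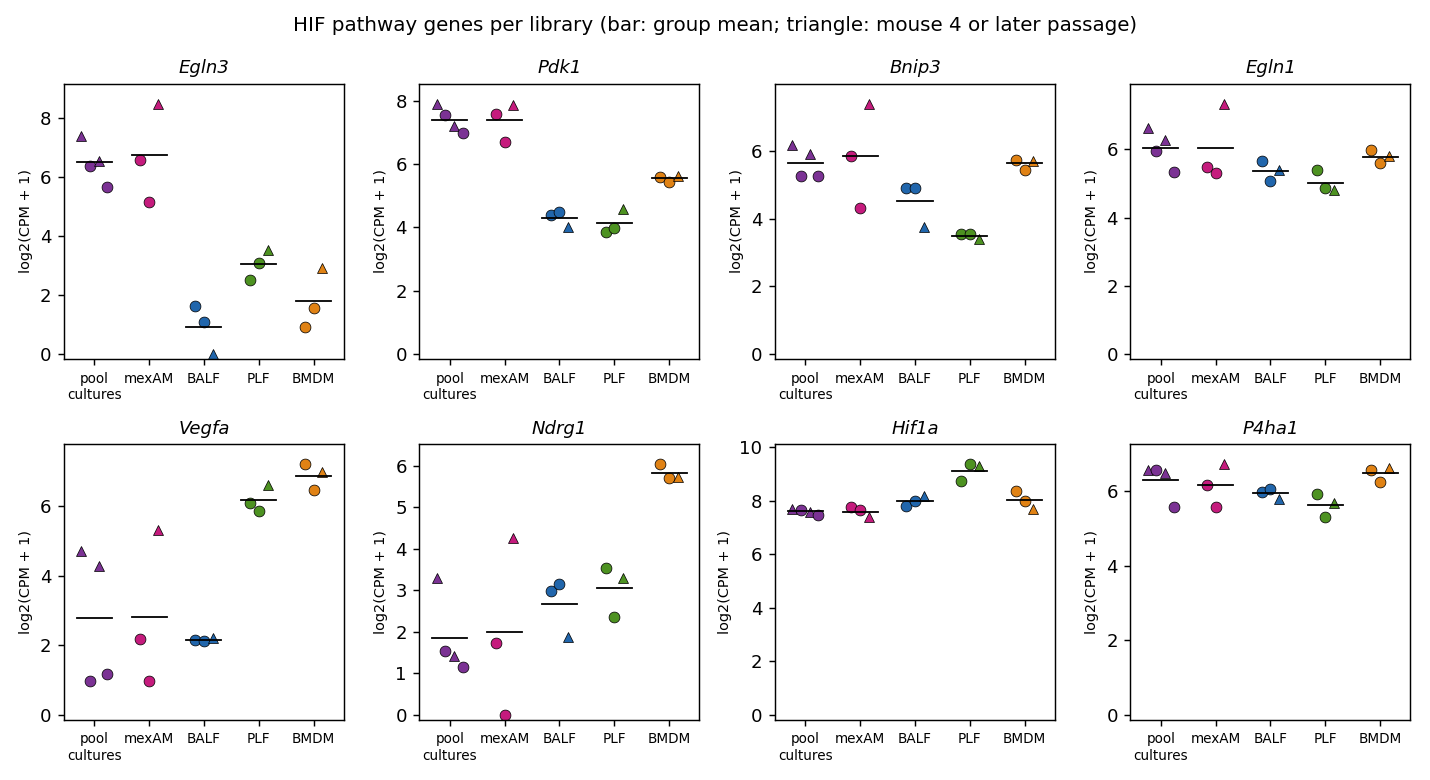
Levels of 8 HIF pathway genes as log2(CPM + 1) in each library, by group; bars are group means and triangles mark mouse 4 or, in pool cultures, the later passage. Vegfa and Ndrg1 are highest in BMDM, Hif1a in PLF, and Egln3 and Pdk1 in the cultures of alveolar macrophages.

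Among BALF, PLF and BMDM, Vegfa and Ndrg1 were lower in BALF than in BMDM, and Vegfa also lower than in PLF. Between BALF and BMDM, 6 members were higher in BALF and 5 lower of 29, with 37.4% of all genes passing (18.2% higher, 19.3% lower). Between BALF and PLF, 6 were higher and 4 lower of 29, with 40.3% passing (19.5% higher, 20.8% lower). With library totals alone the share of calls over all genes in the higher direction was 30.5% for BALF against BMDM, in place of 48.5%, and 33.1% for BALF against PLF, in place of 48.4%. The median log2 changes over the members and over all genes were -0.14 and -0.03 against BMDM, and 0.37 and -0.01 against PLF. Vegfa was at 3.46, 3.38 and 3.59 CPM in BALF, from 3 to 5 counts a library, against 67.5, 57.6 and 96.8 CPM in PLF and 147, 88.4 and 125 CPM in BMDM. BALF was far below both groups (log2 change -4.37 ± 0.97, adjusted p = 0.00325, against PLF, and -5.08 ± 0.95, 0.00105, against BMDM). Ndrg1 was at 6.92, 7.88 and 2.69 CPM in BALF, against 64.6, 51.1 and 52.4 CPM in BMDM (-3.26 ± 0.77, adjusted p = 0.00463). Pdk1 was also lower in BALF than in BMDM (18.9 ± 3.23 and 46 ± 3.61 CPM, -1.28 ± 0.31, adjusted p = 0.00323). Hif1a was lower in BALF than in PLF, at 221, 254 and 287 CPM in BALF and 423, 654 and 623 CPM in PLF (-1.15 ± 0.22, adjusted p = 0.000491).

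Most pentose phosphate genes were higher in BALF than in PLF and than in BMDM. Pgd (log2 change 1.30 ± 0.19, adjusted p = 3.38e-05), Taldo1 (1.20 ± 0.23, 0.000448), Tkt (0.94 ± 0.21, 0.00166) and Rpia (1.97 ± 0.30, 4.72e-05) were higher in BALF than in BMDM, 4 of 6 members and 0 lower, where 18.2% of all genes were higher. Tkt (1.85 ± 0.22, 2.65e-06), Taldo1 (1.48 ± 0.23, 5.74e-05), G6pdx (1.39 ± 0.23, 0.000119) and Pgd (1.26 ± 0.19, 4.25e-05) were higher in BALF than in PLF, again 4 of 6 and 0 lower, where 19.5% of all genes were higher. Pgd was at 773, 873 and 842 CPM in BALF, 446, 310 and 290 CPM in PLF and 315, 352 and 344 CPM in BMDM, and Taldo1 averaged 962 ± 124 CPM in BALF, 348 ± 116 CPM in PLF and 420 ± 30 CPM in BMDM. BALF overlapped with neither group for Pgd and Taldo1. For Rpia, PLF of mouse 4 (45.5 CPM) lay above BALF of mouse 4 (44.9 CPM). Pgls, the lactonase between the 2 dehydrogenases, did not pass in any comparison. The 6 genes summed to 2548, 2468 and 2285 CPM in BALF, 1204, 865.8 and 820 CPM in PLF and 1061, 1108 and 1263 CPM in BMDM. Markers of other cells moved with these comparisons. B cell markers averaged 2.96 ± 1.61 CPM in BALF and 1956 ± 249 CPM in PLF, mast cell markers 1.43 ± 1.9 CPM in BALF and 941 ± 36.4 CPM in PLF, and neutrophil markers 76.3 ± 12.9 CPM in BALF and 2876 ± 1571 CPM in BMDM, as sums over each list. Their part in the differences of BALF or mexAM from PLF and BMDM was not tested.

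**Figure D5:**
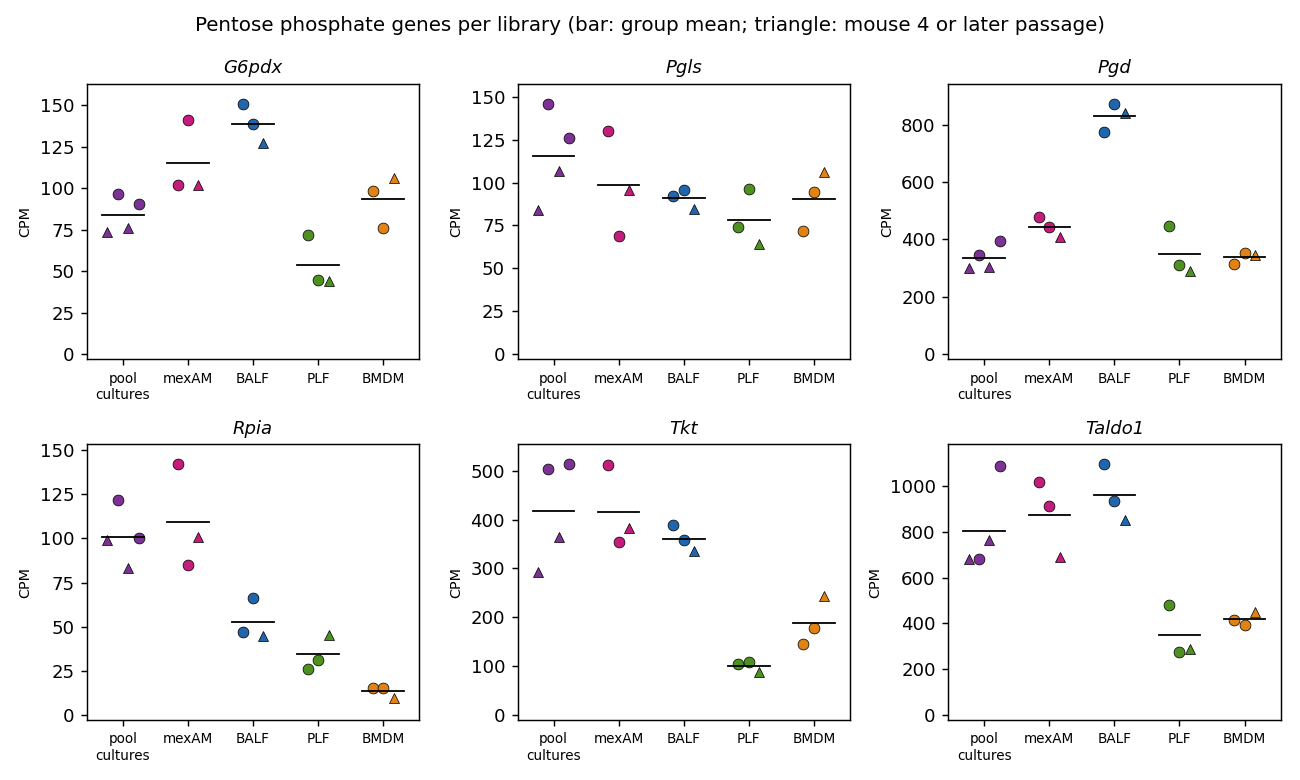
CPM of the 6 pentose phosphate genes in each library, by group; bars are group means and triangles mark mouse 4 or, in pool cultures, the later passage. Pgd is highest in the 3 BALF libraries, Rpia in the cultures, and Tkt and Taldo1 are higher in all alveolar groups than in PLF and BMDM.

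The glycolysis members divided by isozyme in the same comparisons. Hk1, the housekeeping hexokinase, was at 6.23, 5.63 and 11.7 CPM in BALF, against 33.4, 21.4 and 38.4 CPM in PLF and 37.1, 37.3 and 46.5 CPM in BMDM, with no overlap (log2 change -1.98 ± 0.50, adjusted p = 0.00453, against PLF, and -2.34 ± 0.48, 0.0011, against BMDM). Hk2 held 86.1% ± 1.55 of the hexokinase counts in BALF, 74.7% ± 12.6 in PLF and 50.3% ± 8.05 in BMDM. Pfkp was higher in BALF than in BMDM, at 107, 110 and 115 CPM in BALF and 23.1, 30.8 and 51.8 CPM in BMDM (1.67 ± 0.32, adjusted p = 0.000571). Aldoa was higher in BALF than in PLF (1.42 ± 0.23, adjusted p = 0.000102), and so was Pkm (1.47 ± 0.29, 0.000727), while Pfkfb3, which makes the allosteric activator of phosphofructokinase, was lower (-0.92 ± 0.24, 0.00444). Against BMDM, Hk3 was lower in BALF (-1.67 ± 0.53, adjusted p = 0.0208), a call lost without BALF of mouse 1 (0.0501), mouse 2 (0.0767) or mouse 4 (0.0518) or BMDM of mouse 4 (-1.08, 0.107). Aldoa was higher (0.81 ± 0.23, adjusted p = 0.0101), a call lost under library totals alone (0.52, 0.0852) and without BMDM of mouse 1 (0.0575) or mouse 2 (0.0533). With the mouse number as a block, Tpi1 passed as lower in BALF than in BMDM (adjusted p = 0.0153), and Tpi1 (1.54, 0.00209), Ldha (0.92, 0.0198), Pfkp (0.73, 0.0325) and Egln3 (-2.64, 0.0397) passed against PLF.

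PLF and BMDM, both taken from outside the lung, differed in 16 of 29 members, 5 higher and 11 lower in PLF, with 36.5% of all genes passing (18% higher, 18.4% lower). The median log2 change was -0.57 over the members and -0.01 over all genes. The count rests on single libraries: it was 8 without PLF of mouse 4, 9 without PLF of mouse 2 and 10 without BMDM of mouse 4. With the mouse number as a block Aldoa missed the threshold (-0.60, adjusted p = 0.0509). Hif1a was higher in PLF (423, 654 and 623 CPM, against 325, 253 and 205 CPM in BMDM, log2 change 1.11 ± 0.22, adjusted p = 0.000737), with the groups apart, while 4 other members of the pathway were lower. Of these, Ndrg1 (7.89 ± 3.4 CPM in PLF and 56 ± 7.48 CPM in BMDM, -2.80 ± 0.70, adjusted p = 0.00691) and Pdk1 (17.1 ± 5.21 and 46 ± 3.61 CPM, -1.42 ± 0.30, 0.00126) kept their calls in all alternatives. Tpi1 was lower in PLF, at 16.1, 12.3 and 18.3 CPM, against 66.8, 67.5 and 142 CPM in BMDM (-2.55 ± 0.63, adjusted p = 0.00724). Rpia was higher in PLF (34.3 ± 10 and 13.3 ± 3.33 CPM, 1.36 ± 0.30, adjusted p = 0.00172) and Tkt lower (101 ± 11 and 189 ± 50.6 CPM, -0.91 ± 0.21, 0.00277). The B cell and mast cell markers of PLF and the neutrophil markers of BMDM, given above, moved with this comparison, and their part was not tested.

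Egln3 and Pdk1 were higher in mexAM than in PLF and than in BMDM, and so were Rpia, Tkt and Taldo1 of the pentose phosphate pathway. Against PLF, 15 members were higher and 4 lower of 29, with 57.9% of all genes passing (28.4% higher, 29.6% lower), and against BMDM 11 were higher and 5 lower of 29, with 44.6% passing (21.5% higher, 23% lower). The median log2 changes were 1.12 over the members and -0.02 over all genes against PLF. Against BMDM they were 0.59 and -0.00. The count against BMDM was 10 without BMDM of mouse 1 and 10 without BMDM of mouse 2. The calls of Pgam1, Pfkp, Pkm, Ldha, Hk1 and Pfkfb3 against BMDM were each lost without at least 1 library. Without mexAM of mouse 4, for example, the adjusted p was 0.124 for Pgam1, 0.0928 for Pfkp, 0.26 for Pkm, 0.189 for Ldha and 0.156 for Pfkfb3, and without BMDM of mouse 4 it was 0.116 for Hk1. With the mouse number as a block, Pfkfb3 missed the threshold against BMDM (-0.60, adjusted p = 0.057) and Hk1 passed against PLF (-0.76, 0.0468).

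Pdk1 was higher in mexAM than in PLF (3.35 ± 0.30, adjusted p = 5.04e-08) and BMDM (1.93 ± 0.26, 1.21e-05), at 192, 103 and 231 CPM in mexAM, 13.4, 14.8 and 23 CPM in PLF and 47.2, 41.9 and 48.8 CPM in BMDM. Egln3 was higher in mexAM than in PLF, with 4.68, 7.4 and 10.6 CPM there (4.41 ± 0.82, adjusted p = 0.000576, and 3.08 without mexAM of mouse 4), and than in BMDM, with 0.873, 1.96 and 6.47 CPM there (5.76 ± 0.91, 0.00023). The BMDM value was 4.42 without mexAM of mouse 4 and 6.87 without BMDM of mouse 4. The groups did not overlap for either gene. Rpia was also higher in mexAM than in BMDM, at 142, 85.2 and 101 CPM in mexAM and 15.3, 15.1 and 9.41 CPM in BMDM (3.03 ± 0.29, adjusted p = 1.48e-07).

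Vegfa and Ndrg1 were lower in mexAM than in BMDM (-2.94 ± 0.70, adjusted p = 0.00454, and -2.90 ± 0.67, 0.00317), although both were at their highest of mexAM in mouse 4. Without that library the log2 changes were -5.75 for Vegfa and -5.59 for Ndrg1. Vegfa was also lower in mexAM than in PLF (-2.23 ± 0.71, adjusted p = 0.0169). That value was -5.04 without mexAM of mouse 4, and the call was lost without mexAM of mouse 1 (-1.82, 0.0659) or PLF of mouse 4 (-1.99, 0.0591), or without a filter on low counts (-2.20, 0.0896). Hif1a was lower in mexAM than in PLF (-1.54 ± 0.22, adjusted p = 1.7e-05). Pgam1 (3.62 ± 0.66, adjusted p = 0.000163), Tpi1 (3.11 ± 0.63, 0.00108) and Bnip3 (3.01 ± 0.66, 0.00197) were higher in mexAM than in PLF. Their values were 4.28 for Pgam1 without PLF of mouse 1, 2.07 for Tpi1 without mexAM of mouse 4 and 1.89 for Bnip3 without mexAM of mouse 4. Hk3 was lower in mexAM than in BMDM (-1.88 ± 0.49, adjusted p = 0.00594, and -1.28 without BMDM of mouse 4). Aldoa was higher in mexAM than in PLF (1.81 ± 0.24, adjusted p = 5.01e-06) and BMDM (1.20 ± 0.23, 0.000387).

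In the pentose phosphate pathway, Tkt (2.06 ± 0.22, adjusted p = 4.13e-07), Rpia (1.67 ± 0.26, 3.95e-05), Taldo1 (1.35 ± 0.23, 8.74e-05) and G6pdx (1.12 ± 0.23, 0.000478) were higher in mexAM than in PLF, and Rpia, Tkt (1.15 ± 0.21, 0.000219) and Taldo1 (1.06 ± 0.23, 0.000993) were higher than in BMDM. None of the 6 was lower against either group (edgeR). Pgd, the member that fell in mexAM relative to BALF, averaged 443 ± 36 CPM in mexAM, 349 ± 85 CPM in PLF and 337 ± 19.4 CPM in BMDM and passed against neither (adjusted p = 0.108 and 0.0923).

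Of the lists kept apart, the HIF regulator Epas1 was higher in mexAM than in PLF (116 ± 28 and 21.4 ± 5.77 CPM, 2.44 ± 0.25, adjusted p = 3.54e-07) and BMDM (6.23 ± 1.58 CPM there, 4.23 ± 0.29, 2.58e-09). Mpc2 was higher than in both, at 50.7 ± 12.4 CPM in PLF (3.91 ± 0.25, 8.53e-10) and 68.6 ± 3.87 CPM in BMDM (3.47 ± 0.24, 2.56e-09). Tigar, a phosphatase that lowers glycolytic flux and feeds the pentose phosphate pathway, was at 40.1 ± 5.76 CPM in mexAM, 11.6 ± 0.834 CPM in PLF and 10.2 ± 1.8 CPM in BMDM (1.79 ± 0.26, 1.68e-05, and 1.97 ± 0.26, 6.73e-06). Txnip, from the same list of brakes on glycolysis, was lower in mexAM than in BMDM (45.7 ± 42.1 and 402 ± 170 CPM, -3.10 ± 0.59, adjusted p = 0.00102). So was Cited2, another HIF regulator (78.4 ± 42.1 and 217 ± 45.5 CPM, -1.45 ± 0.30, 0.00089). These calls held in all alternatives run. In BALF, Tigar was at 32.6 ± 8.51 CPM, Txnip at 62.3 ± 16.8 CPM and Cited2 at 70.2 ± 5.04 CPM. Tigar was likewise higher in BALF than in PLF (log2 change 1.50) and BMDM (1.68). Txnip (-2.69) and Cited2 (-1.62) were likewise lower in BALF than in BMDM. Of 8 other HIF regulators tested, 2 were higher and 2 lower against PLF, and 1 and 2 against BMDM. Of 12 genes of pyruvate entry, 9 were higher and 0 lower against PLF, and 8 and 2 against BMDM. Of 4 genes of gluconeogenesis and brakes on glycolysis, 2 were higher and 1 lower against each group. Over all genes, 28.4% were higher and 29.6% lower against PLF, and 21.5% and 23% against BMDM.

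The familiar reference genes of glycolysis could not be used. Gapdh had 63 counts and Pgk1 29 counts over the 16 libraries, and both were left out by the filter on low counts in every comparison, as was Ankrd37 in comparisons among mexAM, BALF, PLF and BMDM. The last 300 bases of annotated Gapdh transcripts matched 132 other annotated genes over at least 60 bases at 95% identity or more, 122 of them pseudogenes, and the 132 held 682 counts together. For Pgk1 no such match was found, and the cause of its low count was not tested. Aldoa, Bnip3, Eno1, Gpi1, Ldha, Pkm and Tpi1 also matched 1 to 8 other genes each, so that their levels may miss reads that could not be placed. Exons of Ankrd37, G6pdx, Gapdh, Gpi1, Hk1, Hk3, Pfkp and Tpi1 overlap genes with counts on the other strand. Those genes held 1870 counts for Ankrd37, 1065 for Pfkp, 1061 for G6pdx, 829 for Tpi1 and 256 for Gapdh. They held 25 counts for Hk3, 3 for Hk1 and 1 for Gpi1. The members Ankrd37, Pfkp, G6pdx and Tpi1 themselves held 95, 1667, 2481 and 2458 counts. Exons of Pgls overlap a gene on the same strand, with 66 counts. The sources used here do not state whether counting used strand.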

How the data were processed

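QuantSeq 3' libraries of 65 bp single-end reads, made with a UMI module per the labels' protocols, were deposited as raw read counts per gene, 1 file per library. The submitters' processing notes name the builds GRCm38 and mm10. The aligner, the counter, its strand setting and whether UMIs were collapsed were not given in the sources used here. Lines that name no gene were left out (no feature 10.6% to 29.9%, ambiguous 0.45% to 0.625%). Gene symbols came from GENCODE M21; 419 of 47643 identifiers had none.

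Libraries held 827791 to 2884679 counts. Fits used edgeR 4.0.16 in R 4.3.3 (filterByExpr, TMM, robust glmQLFit, glmQLFTest), with Benjamini-Hochberg adjustment over all genes and a threshold of 0.05. The 6 comparisons among mexAM, BALF, PLF and BMDM were read from 1 model over 12 libraries (10011 genes; residual degrees of freedom, 8). Pools entered as 1 summed column each (10602 genes). The passage fit held all 16 libraries (10527 genes). Comparisons that share a group are not independent. Nothing says that libraries of 1 group came from separate cultures beyond the mouse or pool number, so p-values measure the spread between these libraries. Floors carry counting error only, and isozyme shares are means with the SD over the libraries of a group. Alternatives were DESeq2 1.42.0, its size factors, library totals, exclusion of Gm42418 and mitochondrial genes, other filters, only the groups compared, a replicate block and leaving out each library. The mouse number is the same animal's in the labels, so it pairs libraries; same-mouse deviations correlated at -0.117 to 0.22 (18 pairs, 2 over 0.1).

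Near-identical 3' ends were searched with blastn 2.17.0. The members and lists were chosen with earlier results of these data known. Members described in full were those past the threshold whose higher group averaged 10 CPM or more, largest log2 change first, up to 6 a comparison; of each other list, up to 3 genes per direction were named. Other members are named because the list is the subject.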

Additional observations from a re-analysis of the deposited data

How the results depend on the processing

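Over 90 member results past the threshold and 1235 alternatives, 1120 kept direction and side of the threshold, 115 missed the threshold and 0 reversed; 60 of the 90 never missed it. With only the 2 groups in the fit, BALF against BMDM gave 17 members in place of 11, BALF against PLF 15 in place of 10, PLF against BMDM 18 in place of 16, mexAM against BMDM 12 in place of 16, mexAM against PLF 17 in place of 19 and mexAM against BALF 7 in place of 8. Leaving out each library or pool in turn gave 5 to 13 members for mexAM against BALF, 10 to 18 for mexAM against BMDM, 16 to 21 for mexAM against PLF, 10 to 11 for BALF against BMDM, 10 to 12 for BALF against PLF, 8 to 15 for PLF against BMDM, 0 to 1 for pool cultures against mexAM and 6 to 10 for pool cultures against BALF. With the mouse number as a replicate block the counts were 9, 15, 20, 12, 14 and 15 for the first 6 of these comparisons, and with the pool number as a block 0 for passage; beyond the calls named in the results, the block changed no other. With library totals alone the median log2 change of all genes was 0.22 for mexAM against BALF (0.01 as reported), -0.32 for BALF against BMDM (-0.03), -0.27 for BALF against PLF (-0.01) and 0.20 for pool cultures against BALF (0.00). The share of higher calls among members was then 88.9% against 75% for mexAM against BALF and 62.5% against 50% for pool cultures against BALF, library totals first; the results give the same split over all genes. Genes of few counts, such as Egln3 and Vegfa in BALF, have fold changes limited by depth.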
